A study of Mus musculus with 9 samples.

Results

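The 10 genes described here encode secreted acute phase proteins of the liver other than serum amyloid A: the iron-siderophore binder Lcn2, the hemoglobin and heme binders Hp and Hpx, the pentraxins Apcs and Crp, the inter-alpha-trypsin inhibitor heavy chains Itih3 and Itih4, and the orosomucoids Orm1, Orm2 and Orm3. They were chosen by gene symbol from the 25781 genes of the deposited table, and each of the 10 symbols matched 1 entry. Liver RNA of Swiss mice aged 10 to 12 weeks was sequenced in 3 groups of 3 libraries each. The selenite group received 40 mg/kg β-CYP with 50 µg/kg sodium selenite (Na2SeO3), the β-CYP group received 40 mg/kg β-CYP alone, and the control group was labelled only as control. The abbreviation β-CYP is used as the labels give it, and they name no allele for any group. Nothing in the labels ties the libraries of a group to separate animals, so each p-value here reflects library-to-library spread alone, and that spread may be technical.

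The acute phase response is the rapid change in the set of plasma proteins that hepatocytes secrete after infection, injury or another inflammatory stimulus. Interleukin-6 type cytokines act through STAT3, and interleukin-1 and tumour necrosis factor act through NF-κB, with C/EBP factors acting on many of the same genes. The secreted proteins bind iron carriers, hemoglobin, heme, microbial surfaces, hyaluronan and small lipophilic molecules in blood. Which proteins respond most differs between species: in mice serum amyloid P component, the product of Apcs, is the main pentraxin of the response, whereas in humans C-reactive protein takes that place.

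Libraries held 32084480 to 33056400 reads in the selenite group, 32052250 to 36029560 in the β-CYP group and 28630269 to 35821336 in the control group. The values are called scaled counts, which are reads divided by a factor of the library. All 12 hepatocyte markers of a marker list were detected, and albumin mRNA took 6.39% ± 0.041 of reads in the selenite group, 7.61% ± 0.15 in the β-CYP group and 6.38% ± 0.32 in the control group (SD, n = 3 each). Control replicate 2 stood apart from the other controls over the genes with a mean of at least 100 scaled counts. The chi-square per degree of freedom was 276 and 308 in its pairs. It was 11.8 to 18.8 in the pairs of the other libraries within a group. Abundant genes weigh most in this measure. In bulk liver, fewer cells of a type and less RNA per cell cannot be told apart.

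Between β-CYP and control livers, 9 of the 10 genes rose and none fell, whereas 7.72% of the 20145 genes tested rose and 8.58% fell. The 10 genes were chosen with earlier results of these data known. The change was larger than the spread between libraries for every gene but Orm2 (limma, Benjamini-Hochberg adjusted p under 0.05 over all genes tested). The median log2 change was 0.87 over the 10 genes and -0.0013 over all genes tested. When selenite was given with β-CYP, the genes divided: Lcn2, Orm3, Hpx, Itih3 and Itih4 were lower than with β-CYP alone, Orm1, Orm2, Apcs and Crp were higher, and Hp did not pass. The fall of Itih4 reversed sign, to a rise that did not pass, under 2 other scalings, and the rise of Crp was lost under several settings, as given below. Over all genes tested, 11.6% were higher and 12.3% were lower in this comparison. These shares include genes with few reads, for which small changes seldom pass. Of the 14778 genes with a mean of at least 10 scaled counts, 2331 were higher and 2535 lower in this comparison. In β-CYP against control livers 1633 of them were higher and 1713 lower. Between selenite and control livers, 9 of the 10 genes were higher, against 14.4% of all genes tested (14.5% were lower), and Orm3 alone did not pass. The comparisons share libraries: β-CYP livers enter the comparisons with control and with selenite, and control livers enter both comparisons with control.

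**Figure D1:**
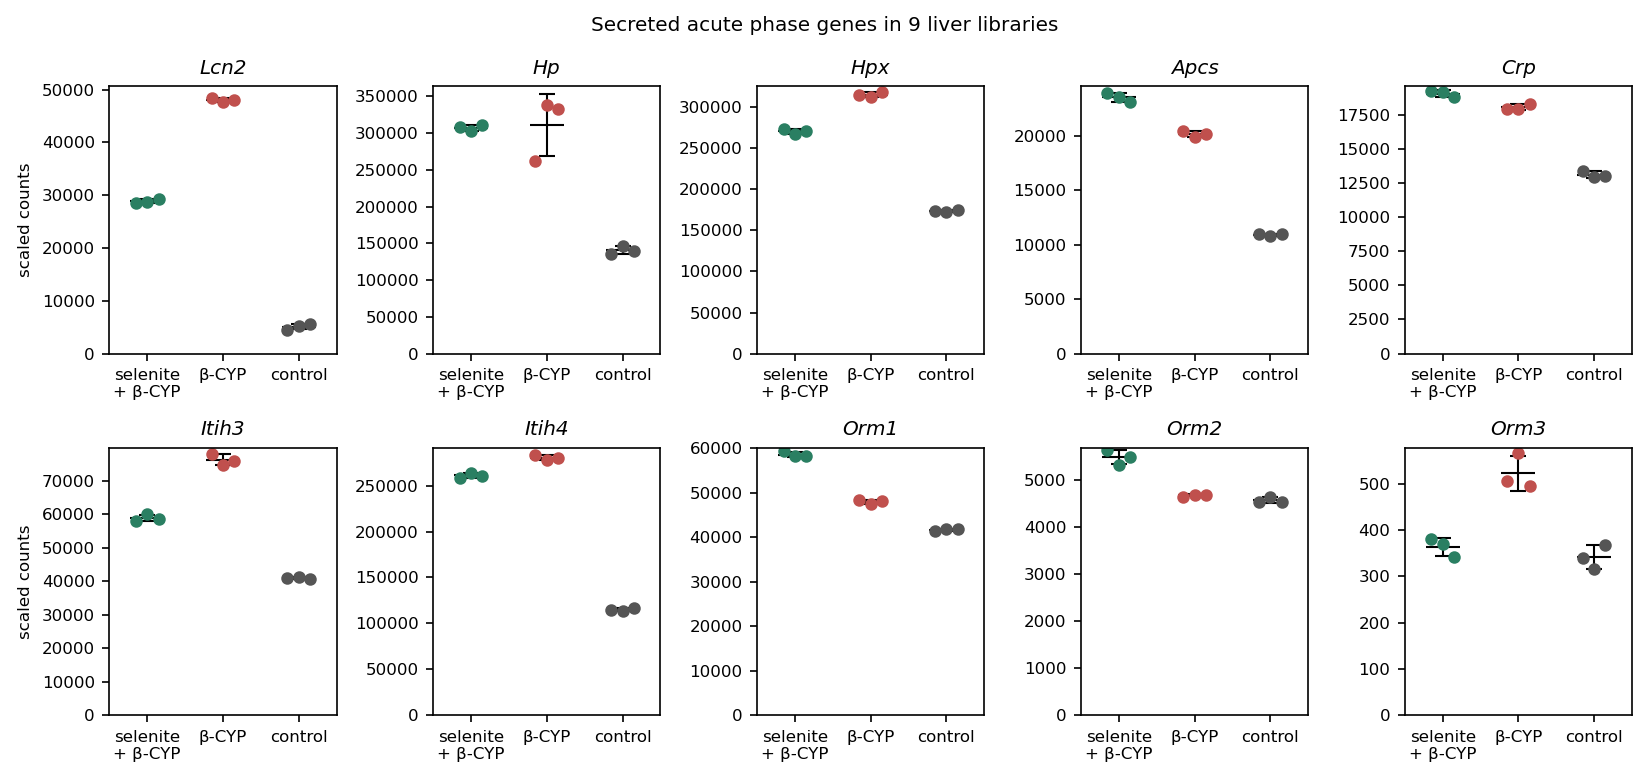
Scaled counts of the 10 secreted acute phase genes in each of the 9 liver libraries, with the selenite + β-CYP group on the left, the β-CYP group in the middle and the control group on the right of each panel. Coloured points are libraries, and the black bars are the mean and SD of 3 libraries. Lcn2 stands at 28557 to 29248 in selenite, 47651 to 48484 in β-CYP and 4520 to 5548 in control livers, and 1 β-CYP library lies below the other two for Hp.

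Lcn2 encodes lipocalin 2, which sequesters bacterial siderophores and so withholds iron. Lcn2 had 28557, 28631 and 29248 scaled counts in the selenite livers, 48484, 47651 and 48064 in the β-CYP livers, and 4520, 5193 and 5548 in the control livers. The 3 groups did not overlap, and each β-CYP library was far above each control library. Lcn2 was 9.45-fold higher in β-CYP than in control livers (log2 change 3.25 ± 0.060 SE, adjusted p = 5.5e-10), and 0.179% of the genes tested rose by at least as much. With selenite added, Lcn2 fell by 0.74 on the log2 scale (SE 0.060, adjusted p = 1.4e-05), to 0.599 of its level with β-CYP alone. Under quantile normalization this fall was 0.34 on the log2 scale (-0.34, adjusted p = 0.00231). It was still 5.66-fold above control (log2 change 2.51 ± 0.060, adjusted p = 1.7e-09). By abundance among all genes, Lcn2 took place 126 in the selenite group, place 98 in the β-CYP group and place 734 in the control group.

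Neutrophil granules also hold lipocalin 2, so the values of neutrophil markers stand beside those of Lcn2. The 14 genes of a neutrophil list summed to 1099 to 1130 scaled counts in selenite libraries, 783 to 879 in β-CYP libraries and 325 to 352 in control libraries. Of the 13 tested, 6 rose in β-CYP against control and none fell. In selenite against β-CYP livers none was lower and 1, Csf3r, was higher (log2 change 0.53 ± 0.17, adjusted p = 0.044), a call lost under 10 of 17 alternatives, over which 0 to 3 genes of the list rose. The part of neutrophils in the Lcn2 values was not tested.

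Haptoglobin, the product of Hp, binds free hemoglobin in plasma, and hemopexin, the product of Hpx, binds free heme. Hp had 308626, 302869 and 310925 scaled counts in the selenite livers, 262239, 337820 and 332671 in the β-CYP livers, and 135486, 146524 and 139359 in the control livers. Both treated groups lay above control without overlap, and 1 β-CYP library lay below all selenite libraries while the other 2 lay above them. Hp was 2.21-fold higher in β-CYP than in control livers (log2 change 1.14 ± 0.081, adjusted p = 8.9e-06) and 2.19-fold higher in selenite than in control livers (log2 change 1.13 ± 0.081, adjusted p = 4.7e-06). The difference between selenite and β-CYP livers was -0.0067 ± 0.081 (adjusted p = 0.979), with a 95% interval of -0.19 to 0.18.

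In β-CYP replicate 1, Hp was 0.35 log2 units below the mean of the other 2 β-CYP libraries. Among the 369 genes with a mean of at least 10000 scaled counts, 6 were at least that far apart in this library, in either direction. The other 9 genes of this report differed by at most 0.066 log2 units in the same comparison of libraries. Without β-CYP replicate 1, Hp was lower in selenite than in β-CYP livers (log2 change -0.12, adjusted p = 0.0221), and its direction turned to a rise that did not pass when β-CYP replicate 2 or 3 or selenite replicate 2 was left out, and under scaling to equal totals.

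Hpx had 273953, 268008 and 270685 scaled counts in the selenite livers, 315649, 312293 and 318790 in the β-CYP livers, and 174303, 172260 and 174867 in the control livers. The 3 groups were fully apart, with selenite livers between the other two. Hpx was 1.82-fold higher in β-CYP than in control livers (log2 change 0.86 ± 0.014, adjusted p = 2.8e-10). With selenite it fell by 0.22 on the log2 scale (SE 0.014, adjusted p = 2.9e-06), to 0.858 of its β-CYP level. This call was lost under scaling to equal totals (log2 change -0.093, adjusted p = 0.277). Within libraries, the ratio of Hp to Hpx scaled counts was 1.14 ± 0.012 in selenite, 0.985 ± 0.14 in β-CYP and 0.808 ± 0.038 in control livers (SD, n = 3 each).

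Apcs and Crp encode short pentraxins, which bind phosphorylated or sugar ligands on microbes and cell debris in the presence of calcium and recruit complement. Apcs had 23895, 23538 and 23108 scaled counts in the selenite livers, 20421, 19857 and 20142 in the β-CYP livers, and 10992, 10809 and 10928 in the control livers. No groups overlapped, and the selenite livers were highest. Apcs was 1.85-fold higher in β-CYP than in control livers (log2 change 0.88 ± 0.022, adjusted p = 5.4e-09), and it rose a further 1.17-fold in selenite over β-CYP livers (log2 change 0.22 ± 0.022, adjusted p = 4.6e-05). That step was 0.35 under equal totals and 0.51 under quantile normalization. Its level in selenite livers was 2.16-fold that of control livers (log2 change 1.11 ± 0.022, adjusted p = 4.9e-10).

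Crp had 19239, 19176 and 18791 scaled counts in the selenite livers, 17976, 17981 and 18327 in the β-CYP livers, and 13396, 12936 and 12995 in the control livers. The order of the groups was that of Apcs, with a smaller distance between the treated groups. Crp was 1.38-fold higher in β-CYP than in control livers (log2 change 0.47 ± 0.022, adjusted p = 4.8e-07). The rise in selenite over β-CYP livers was 1.05-fold (log2 change 0.076 ± 0.022, adjusted p = 0.0349). That call was lost when selenite replicate 1 or 2 or β-CYP replicate 1 or 2 was left out (adjusted p of at least 0.0864) and under equal-median scaling (adjusted p = 0.258), whereas the change was 0.20 under equal totals and 0.31 under quantile normalization. The ratio of Apcs to Crp scaled counts was 1.23 ± 0.0078 in selenite, 1.11 ± 0.020 in β-CYP and 0.832 ± 0.011 in control livers.

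Itih3 and Itih4 encode heavy chains of the inter-alpha-trypsin inhibitor family, some of whose members can be transferred to hyaluronan and stabilise extracellular matrix. The Itih3 chain is joined to bikunin, the light chain encoded by Ambp, whereas the Itih4 protein circulates without bikunin. Itih3 had 57996, 59976 and 58625 scaled counts in the selenite livers, 78084, 74771 and 75995 in the β-CYP livers, and 40940, 41213 and 40765 in the control livers. Selenite livers lay between the other groups with no overlap. Itih3 was 1.86-fold higher in β-CYP than in control livers (log2 change 0.90 ± 0.021, adjusted p = 3.5e-09), and with selenite it fell by 0.37 on the log2 scale (SE 0.021, adjusted p = 8.9e-07). That difference was -0.25 under equal totals and -0.13 under quantile normalization, and it passed under both.

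Itih4 had 258869, 264045 and 260492 scaled counts in the selenite livers, 283121, 277795 and 280072 in the β-CYP livers, and 114881, 113534 and 116816 in the control livers. Both treated groups were far above control and near each other. Itih4 was 2.44-fold higher in β-CYP than in control livers (log2 change 1.28 ± 0.016, adjusted p = 2.6e-11), the second largest of the 10 changes after Lcn2. The fall with selenite was 0.10 on the log2 scale (-0.10 ± 0.016, adjusted p = 0.00103), and it turned to 0.025 under scaling to equal totals and to 0.022 under quantile normalization, neither of which passed. The ratio of Itih4 to Itih3 scaled counts was 4.44 ± 0.031 in selenite, 3.68 ± 0.046 in β-CYP and 2.81 ± 0.055 in control livers, which did not overlap.

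**Figure D2:**
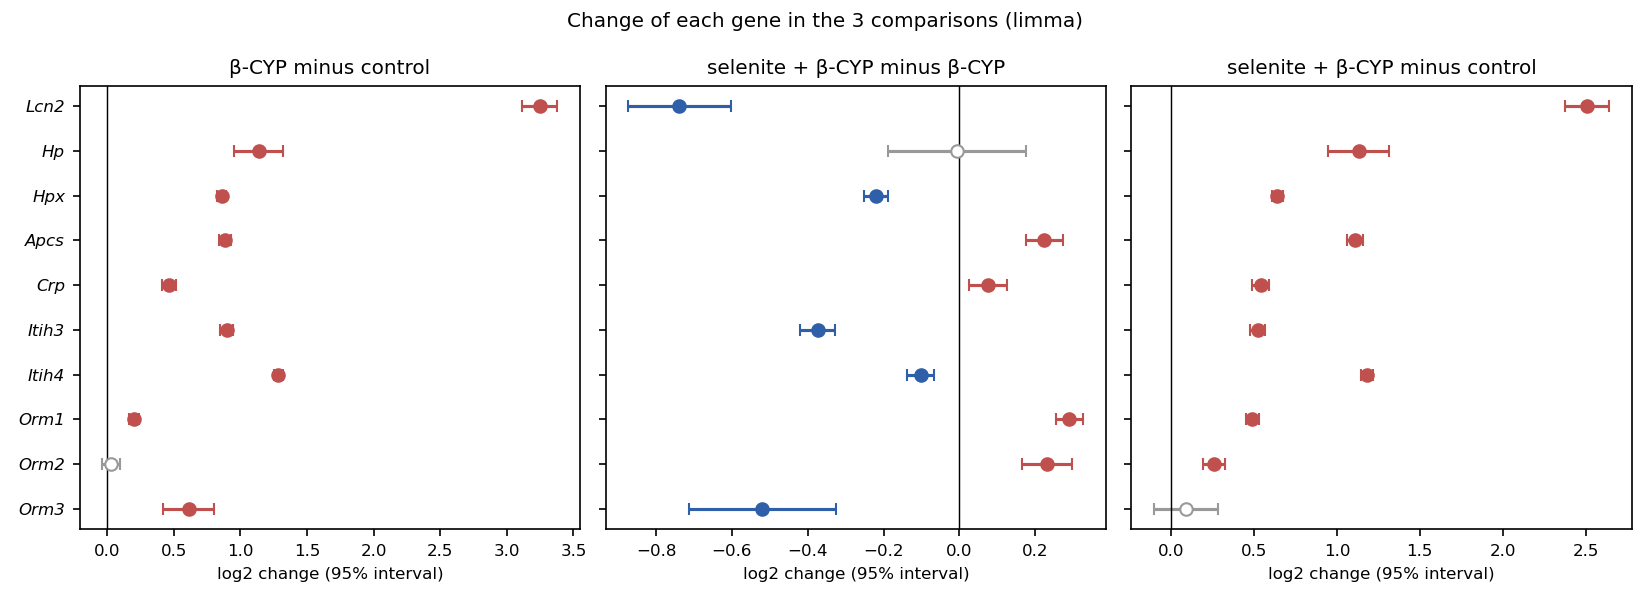
Log2 change with its 95% interval (limma, 3 libraries a group) for each of the 10 genes in β-CYP minus control, selenite + β-CYP minus β-CYP, and selenite + β-CYP minus control. Red points rose and blue points fell at an adjusted p under 0.05, and open grey points did not pass. The middle panel has 4 red and 5 blue points and the widest interval but one at Hp, from -0.19 to 0.18.

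Orm1, Orm2 and Orm3 encode orosomucoids, or alpha-1-acid glycoproteins, which carry basic and lipophilic molecules in plasma. Orm1 had 59318, 58348 and 58231 scaled counts in the selenite livers, 48327, 47438 and 48089 in the β-CYP livers, and 41461, 41817 and 41876 in the control livers. The groups did not overlap, and the step between the selenite and β-CYP groups was the larger one. Orm1 was 1.15-fold higher in β-CYP than in control livers (log2 change 0.20 ± 0.016, adjusted p = 2.1e-05) and 1.22-fold higher in selenite than in β-CYP livers (log2 change 0.29 ± 0.016, adjusted p = 9.9e-07). Under quantile normalization these changes were 0.093 and 0.58, and both passed.

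Orm2 had 5646, 5341 and 5497 scaled counts in the selenite livers, 4658, 4697 and 4688 in the β-CYP livers, and 4552, 4658 and 4541 in the control livers. The β-CYP and control libraries overlapped at their edges, and the selenite libraries lay above both. The difference between β-CYP and control livers was 0.030 ± 0.029 on the log2 scale (adjusted p = 0.571), with a 95% interval of -0.035 to 0.096. Orm2 was 1.17-fold higher in selenite than in β-CYP livers (log2 change 0.23 ± 0.029, adjusted p = 3.1e-04), and this change was 0.36 under equal totals and 0.37 under quantile normalization.

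Orm3 was the least abundant of the 10 genes, with 380, 371 and 342 scaled counts in the selenite livers, 507, 567 and 496 in the β-CYP livers, and 341, 317 and 368 in the control livers. The β-CYP libraries were above all others, while selenite and control libraries overlapped. Orm3 was 1.53-fold higher in β-CYP than in control livers (log2 change 0.61 ± 0.086, adjusted p = 8.9e-04), and with selenite it fell by 0.52 on the log2 scale (SE 0.086, adjusted p = 0.0017). Between selenite and control livers its difference was 0.092 ± 0.086 (adjusted p = 0.483), with a 95% interval of -0.10 to 0.29. Orm1 and Orm2 therefore rose with selenite while Orm3 fell.

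The orosomucoid genes are close copies, which makes the value of each uncertain. The longest coding transcripts of Orm1 and Orm2 in GENCODE M21 were 91.0% identical over 775 aligned bases, those of Orm2 and Orm3 88.5%, and those of Orm1 and Orm3 86.5%. Of the 50-base windows of the Orm1 transcript, 20.4% occurred unchanged in Orm2 and 2.20% in Orm3. The counting of reads that such copies share was not described in the labels. As deposited, Orm1 made up 90.9% ± 0.16 of the scaled counts of the 3 genes in selenite, 90.2% ± 0.17 in β-CYP and 89.4% ± 0.071 in control livers. Orm3 made up 0.565% ± 0.027, 0.985% ± 0.079 and 0.733% ± 0.055 in the same order of groups.

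Promoter sequences are shown for the genes in which the contrast between members was sharpest: Lcn2, with the largest change, Apcs and Itih4, the pentraxin and the heavy chain that rose most in β-CYP livers, and the neighbours Orm2 and Orm3, which moved in opposite directions with selenite. The RefSeq table of build GRCm38.p6 held windows from 250 bases before to 50 bases after the start for 8 of the 10 genes, and Orm1 and Hp had no entry. The 250 bases before the start are printed 5′ to 3′ on the gene's strand, and capitals mark matches on either strand to 4 motifs: TTCNNNGAA for STAT factors, TTGCNNAA for C/EBP factors, GGGNNNNNCC for NF-κB, and CTGGGAA, the core of the acute phase response element. The sequences lie at chr2:32387740-32387989 (minus strand), chr1:172895055-172895304 (minus), chr14:30886226-30886475 (plus), chr4:63362199-63362448 (plus) and chr4:63355908-63356157 (plus).
Lcn2: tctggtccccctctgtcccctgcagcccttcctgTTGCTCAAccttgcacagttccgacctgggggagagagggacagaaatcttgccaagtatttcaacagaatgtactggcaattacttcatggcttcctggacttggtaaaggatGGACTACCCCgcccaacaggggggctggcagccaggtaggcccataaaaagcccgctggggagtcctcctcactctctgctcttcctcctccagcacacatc
Apcs: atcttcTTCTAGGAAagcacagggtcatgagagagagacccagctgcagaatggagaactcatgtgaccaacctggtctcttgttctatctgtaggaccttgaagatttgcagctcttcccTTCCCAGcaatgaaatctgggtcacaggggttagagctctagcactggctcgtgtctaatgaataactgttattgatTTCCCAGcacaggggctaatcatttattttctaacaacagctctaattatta
Itih4: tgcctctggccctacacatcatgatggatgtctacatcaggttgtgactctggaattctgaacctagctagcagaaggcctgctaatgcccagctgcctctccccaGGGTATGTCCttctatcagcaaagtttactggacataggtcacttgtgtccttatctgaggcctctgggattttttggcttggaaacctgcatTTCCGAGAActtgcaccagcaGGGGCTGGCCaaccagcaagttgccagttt
Orm2: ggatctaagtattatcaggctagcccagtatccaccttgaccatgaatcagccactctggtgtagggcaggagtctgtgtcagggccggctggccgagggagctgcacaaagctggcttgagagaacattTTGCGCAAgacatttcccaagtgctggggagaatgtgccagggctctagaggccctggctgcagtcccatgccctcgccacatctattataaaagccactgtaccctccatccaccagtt
Orm3: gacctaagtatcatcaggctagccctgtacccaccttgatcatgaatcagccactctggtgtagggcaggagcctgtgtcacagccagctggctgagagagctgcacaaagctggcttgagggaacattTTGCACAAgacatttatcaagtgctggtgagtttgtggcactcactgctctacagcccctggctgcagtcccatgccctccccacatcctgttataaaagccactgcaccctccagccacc

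In these windows the STAT motif matched in Apcs, 244 bases before the start, and in Itih4, 51 bases before it, and in no other of the 8 genes. The C/EBP motif matched in Lcn2, Orm2, Orm3 and Hpx, and the NF-κB motif in Lcn2, Crp, Itih3 and Itih4. The acute phase core matched in Apcs on the reverse strand, 129 and 52 bases before the start, and in Orm3 past the start. Over the same window of all 32851 promoters in the table, 8.30% held the STAT motif, 10.8% the C/EBP motif, 50.8% the NF-κB motif and 11.1% the acute phase core. The whole windows of Orm2 and Orm3 were 89.2% identical over 295 aligned bases, with the C/EBP match 120 and 121 bases before the start. A match is a description of letters in this window, and its part in the changes of any gene was not tested.

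The 10 genes together took a larger share of reads in treated than in control livers. Their share of all reads was 3.41%, 3.38% and 3.37% in the selenite libraries, 3.24%, 3.42% and 3.45% in the β-CYP libraries, and 1.69%, 1.52% and 1.67% in the control libraries. Every treated library was above every control library. With mitochondrial (mt-) genes and AY036118 left out of the total, the mean share was 3.64% in selenite, 3.58% in β-CYP and 1.80% in control livers. Control replicate 2 then stood at 1.75%. The shares and tests that follow use all reads. The mean share was 1.74 percentage points higher in β-CYP than in control livers and 1.76 points higher in selenite than in control livers (exact two-sided permutation test, p = 0.1 in both, the smallest that 3 against 3 libraries can give). The mean share differed by 0.020 points between selenite and β-CYP livers (exact permutation p = 1.0), with selenite libraries inside the range of the β-CYP libraries. That difference turned negative without β-CYP replicate 1 and without the Orm genes.

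Hp, Hpx and Itih4 made up most of the sum. Hp took 1.01% ± 0.012 of reads in selenite, 0.932% ± 0.13 in β-CYP and 0.418% ± 0.010 in control livers. Hpx took 0.887% ± 0.013, 0.946% ± 0.011 and 0.519% ± 0.036 in the same groups, and Itih4 took 0.855% ± 0.0098, 0.841% ± 0.0089 and 0.343% ± 0.025. By abundance among all genes, Hp stood at place 11 in selenite, 10 in β-CYP and 36 in control livers. Lcn2, whose fold change was far greater, took 0.0943% ± 6.9e-04 in selenite, 0.144% ± 0.0014 in β-CYP and 0.0152% ± 0.0016 in control livers.

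**Figure D3:**
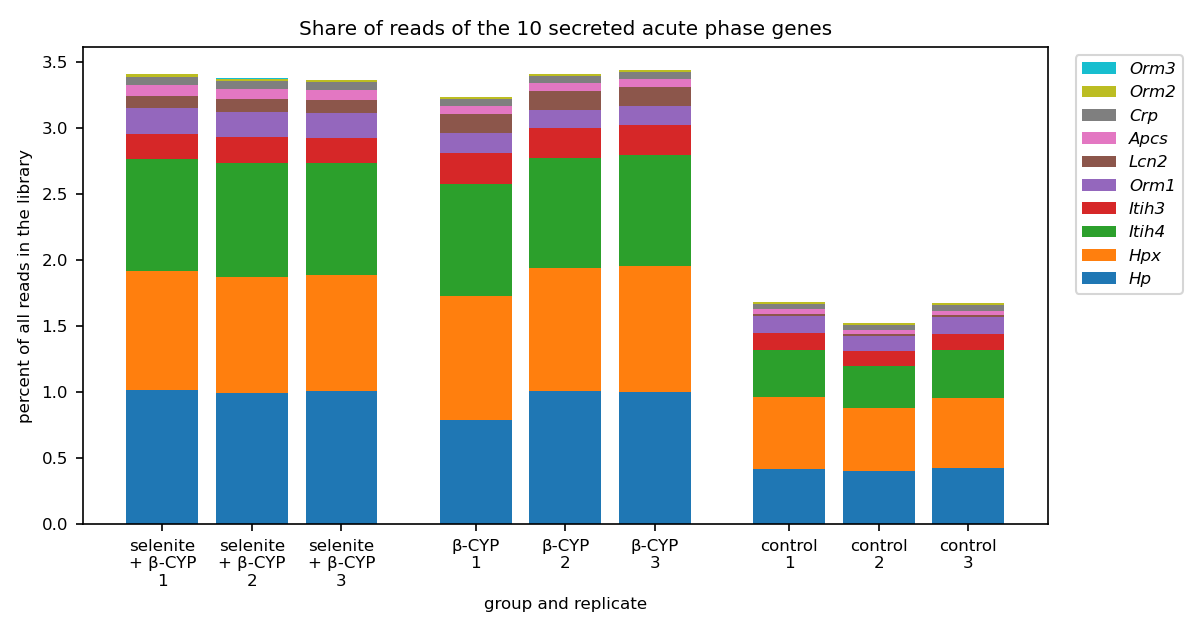
Percent of all reads of each of the 9 libraries taken by the 10 genes, stacked by gene, with the 3 selenite + β-CYP libraries on the left, the 3 β-CYP libraries in the middle and the 3 control libraries on the right. The whole bar reaches 3.37% to 3.41% in selenite, 3.24% to 3.45% in β-CYP and 1.52% to 1.69% in control libraries, and Hp, Hpx and Itih4 fill most of each bar.

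Levels were also divided by exon length, taken as all bases covered by any annotated exon of the gene. This length exceeds that of the longest coding transcript for some genes, such as Itih3 (3638 against 2992 bases) and Crp (3444 against 1695 bases). It equals that length for Orm1, Orm2, Orm3 and Apcs, so the choice lowers some genes relative to others. The order of genes below, and the overlaps between them, hold for this choice of length. In selenite livers Hp was highest at 191453 ± 2584 scaled counts per kb, before Hpx at 180709 ± 1986, Orm1 at 75654 ± 770 and Itih4 at 70768 ± 717. In β-CYP livers Hpx had 210525 ± 2167 and Hp 193593 ± 26294 scaled counts per kb, and their libraries overlapped. Itih4 followed there at 75970 ± 724 and Orm1 at 61873 ± 594, in the opposite order to selenite livers.

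Below these, Itih3 at 20968 ± 460 and Apcs at 20742 ± 291 scaled counts per kb overlapped in β-CYP livers, whereas in selenite livers Apcs at 24216 ± 406 lay above Itih3 at 16181 ± 278. In control livers Itih3 at 11262 ± 62.1 and Apcs at 11236 ± 96.1 overlapped as well. Lcn2 moved most within the order. It had 10984 ± 145 scaled counts per kb in selenite and 18325 ± 159 in β-CYP livers, above Orm2 and Crp, and 1939 ± 199 in control livers, below both. Orm3 was last in each group, with 471 ± 25.7, 677 ± 49.2 and 442 ± 33.0 scaled counts per kb in selenite, β-CYP and control livers (all ± SD, n = 3).

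**Figure D4:**
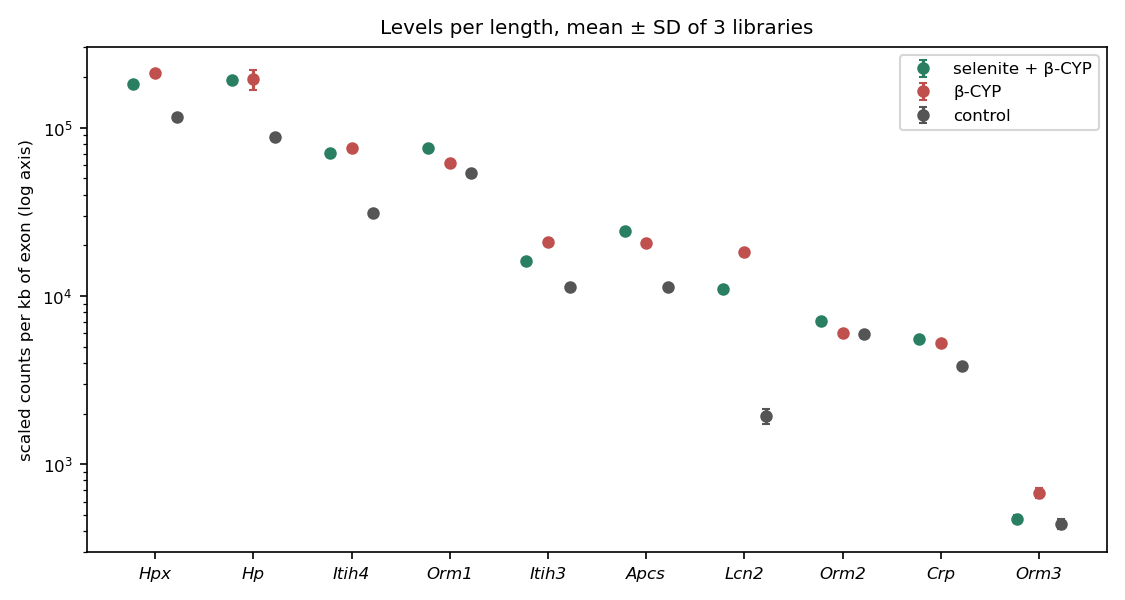
Scaled counts per kb of exon on a log axis for the 10 genes, ordered by their mean in β-CYP livers, as mean ± SD of 3 libraries for selenite + β-CYP, β-CYP and control livers from left to right within each gene. Lcn2 spans 1939 in control to 18325 in β-CYP livers, the widest span of the 10 genes, and most SDs are smaller than the points.

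The position of the selenite livers on the way between control and β-CYP livers differed from gene to gene. Taking the difference of mean scaled counts between β-CYP and control as 100%, the difference between selenite and control livers was 12.3% for Orm3, 50.7% for Itih3, 55.2% for Lcn2, 68.5% for Hpx, 88.4% for Itih4 and 98.0% for Hp. It was 119.5% for Crp, 136.5% for Apcs and 271% for Orm1. These percentages describe the means, carry no test, and leave out Orm2, for which β-CYP and control did not differ detectably. They hold for the deposited scaling, and the selenite against β-CYP changes moved under other settings as given for each gene.

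Likeness of pattern was measured as the root mean square difference between log2 values of 2 genes, each centred on its mean over the 9 libraries, among 10510 genes with a mean of at least 100 scaled counts. Within the 10 genes, Hpx and Itih3 were the closest pair (0.070), followed by Orm1 and Orm2 (0.099), and Lcn2 and Orm2 were the farthest apart (1.35). Outside them, the gene nearest to Apcs was Fgg, which encodes the fibrinogen gamma chain (0.021), and the nearest to Lcn2 was Steap4, which encodes a metalloreductase (0.13). The nearest to Itih4 was Lrg1, which encodes the secreted leucine-rich alpha-2 glycoprotein (0.058).

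The changes of these neighbours in pattern are given as a description, since the genes were picked for their likeness in these same libraries. Fgg was higher in β-CYP than in control livers (log2 change 0.88 ± 0.016) and higher again in selenite than in β-CYP livers (0.25 ± 0.016, and 0.37 under equal totals). Steap4 rose by 3.00 ± 0.019 in β-CYP over control livers and fell by 0.66 with selenite (SE 0.019), or by 0.31 under quantile normalization (-0.31). Lrg1 rose by 1.18 in β-CYP over control livers, and its change with selenite, -0.12, turned positive under equal totals and quantile normalization. The nearest gene was Slc25a47 for Orm1 (0.015), Glo1 for Orm2 (0.014), Nectin1 for Orm3 (0.068), Id2 for Hp (0.11), Garem1 for Hpx (0.044) and Serinc3 for Crp (0.037). For Itih3 the nearest was 1810055G02Rik (0.054), followed by Clpx (0.063) and the hepatokine gene Fgl1 (0.063).

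Other acute phase genes were read beside the 10, from a list that, like the other lists, was chosen with earlier results of these data known. The shares to set beside the list counts are those over all genes tested. In β-CYP against control livers 7.72% rose and 8.58% fell. In selenite against β-CYP livers 11.6% rose and 12.3% fell. Of 29 other acute phase genes, 23 rose and 2 fell in β-CYP against control livers, with a median log2 change of 0.58. Saa3 (log2 change 4.07 ± 0.22, here and below with its SE), A2m (3.95 ± 0.25) and Steap4 had the largest rises. Serpina3k was lower (-0.38 ± 0.019), though not under quantile normalization (-0.19, adjusted p = 0.417). The count of falls was 1 under equal totals, under quantile normalization, without the intensity trend, with only 6 libraries and without β-CYP replicate 2. With selenite added to β-CYP, 10 of the 29 rose and 12 fell, so that this list too was divided. Lbp, which encodes lipopolysaccharide binding protein (-0.87 ± 0.036), and Saa1 (-0.75 ± 0.027) fell. A2m (2.74 ± 0.25), Cd14, an endotoxin co-receptor (1.75 ± 0.11), and Hamp, which encodes hepcidin (1.14 ± 0.028), rose.

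Genes whose products are known to fall in an acute phase response were read from a list of 16. In β-CYP against control livers 11 rose and 1 fell, with a median of 0.13. Under equal totals, or without the intensity trend, 7 rose and none fell, and under quantile normalization 6 rose and 3 fell. Serpina7 (1.79 ± 0.092) and Apoa4 (1.82 ± 0.025) rose. Serpina6, which encodes the corticosteroid carrier of plasma, was the gene that fell (-0.16 ± 0.031), a call lost with equal totals (adjusted p = 0.115) and without the intensity trend (adjusted p = 0.107). Selenite livers had 1 of the 16 higher and 13 lower than β-CYP livers, with a median of -0.19, among them Serpina6 (-0.44 ± 0.031), Alb (-0.38 ± 0.019) and Ttr (-0.31 ± 0.021). These counts rest on the scaling: 5 were lower under equal totals, and 4 were lower and 2 higher under quantile normalization, where Alb had the same value in every library. Ttr was -0.18 under equal totals.

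Other genes of the inter-alpha-trypsin inhibitor family were read beside Itih3 and Itih4. Itih1, which lies next to Itih3, was higher by 0.12 ± 0.018 in β-CYP than in control livers, a call lost with equal totals (adjusted p = 0.118) and without the intensity trend (adjusted p = 0.155). Ambp rose by 0.26 ± 0.018, and Itih5 fell by 1.46 on the log2 scale (SE 0.076). Itih2 had a change of 0.0056 ± 0.024, which did not pass. In selenite against β-CYP livers Itih1 (-0.40 ± 0.018), Ambp (-0.18 ± 0.018) and Itih2 (-0.34 ± 0.024) fell and Itih5 (0.95 ± 0.076) rose. Under quantile normalization none of these falls passed, with -0.040 for Itih1, -0.015 for Ambp and 0.021 for Itih2, and under equal totals Ambp did not pass either (-0.051, adjusted p = 0.503) and Itih2 was -0.21.

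Of 25 genes for upstream receptors, kinases and transcription factors, 14 rose and 5 fell in β-CYP against control livers, with a median of 0.28, and 3 fell without the intensity trend or with only the 6 libraries. The interleukin-1 receptor gene Il1r1 (2.17 ± 0.034), the feedback inhibitor gene Socs3 (1.81 ± 0.075) and the oncostatin M receptor gene Osmr (1.46 ± 0.15) had the largest rises. Lifr, which encodes a receptor of leukaemia inhibitory factor, fell by 1.09 (SE 0.031). Between selenite and β-CYP livers 2 rose and 11 fell, with a median of -0.19. Under equal totals 6 fell, and without the intensity trend or with only the 6 libraries 1 rose. Cebpb (-0.94 ± 0.051) and Hnf4a (-0.66 ± 0.027, and -0.43 under quantile normalization) fell. Cebpd (-0.63 ± 0.15) was lower too, but the call was lost with equal totals (adjusted p = 0.0639), without selenite replicate 2 (adjusted p = 0.0523) and without β-CYP replicate 3 (adjusted p = 0.0532). Lifr (0.20 ± 0.031, and 0.44 under quantile normalization) rose. Cebpa was higher (0.28 ± 0.062), which did not pass without the intensity trend (adjusted p = 0.0549) or with only the 6 libraries (adjusted p = 0.0581). Of 8 cytokine ligand genes tested, none passed in β-CYP against control livers with limma (0 at an unadjusted p under 0.05). With selenite 1 of the 8 was higher and 1 lower, beside shares of 11.6% and 12.3% over all genes tested. These counts ran from 0 to 3 and from 1 to 2 over the alternatives.

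**Figure D5:**
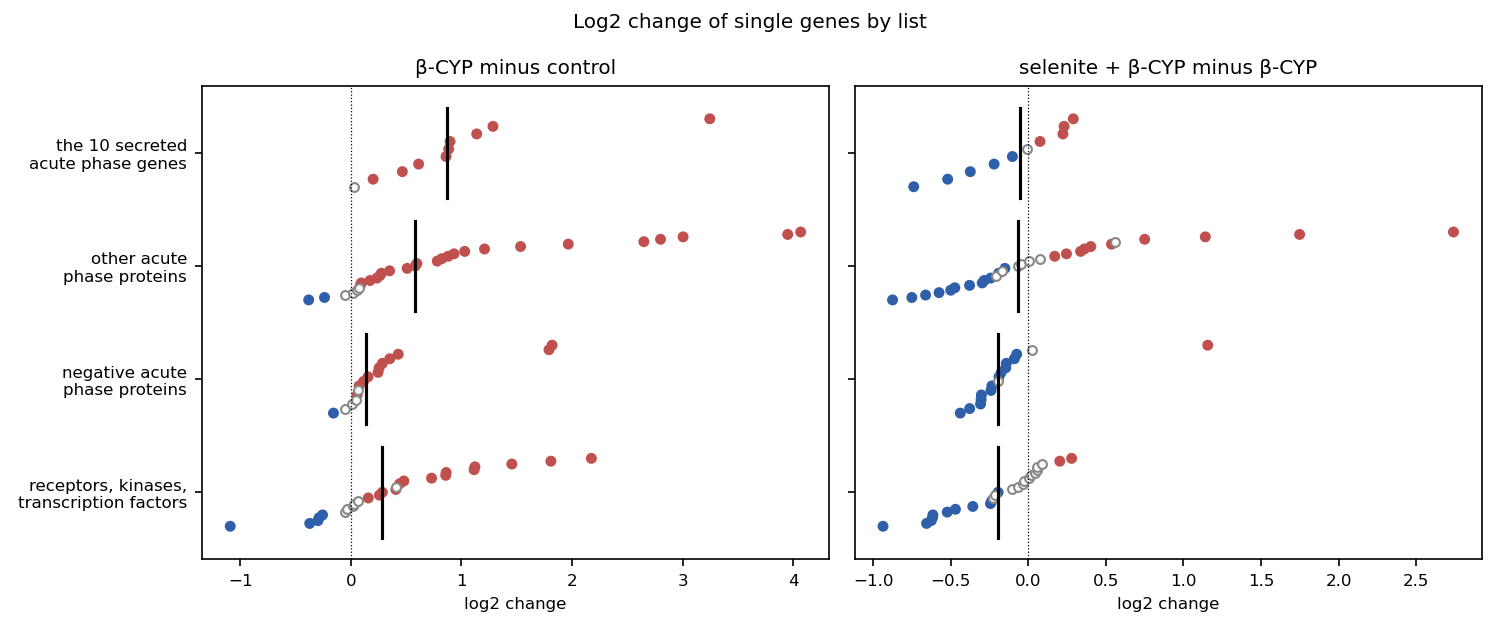
Log2 changes of single genes, 1 point a gene, in β-CYP minus control on the left and selenite + β-CYP minus β-CYP on the right, for the 10 genes, 29 other acute phase genes, 16 negative acute phase genes and 25 upstream genes from top to bottom. Red points rose and blue points fell at an adjusted p under 0.05, open points did not pass, and the black lines are medians. For the 10 genes the medians are 0.87 on the left and -0.055 on the right.

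Receptors that clear the secreted proteins were read in the same libraries. Of 16 tested, 7 rose and 3 fell in β-CYP against control livers. Cd163, the macrophage receptor for haptoglobin and hemoglobin in humans, fell by 1.55 (SE 0.074), and Hmox1, which encodes the heme-degrading enzyme, rose by 0.89 ± 0.071. Fcgr4, an immunoglobulin receptor gene, rose by 0.88 ± 0.096. In selenite against β-CYP livers 3 rose and 5 fell (3 fell under equal totals and under quantile normalization), with Cd163 (2.59 ± 0.074) and Cd44, a hyaluronan receptor gene (0.66 ± 0.087), higher and Asgr2 (-0.60 ± 0.030), a subunit gene of the hepatocyte receptor for desialylated glycoproteins, lower. C1qa, a complement partner of the pentraxins, rose by 0.45 ± 0.059 in β-CYP over control livers.

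Markers of other cells moved beside the 10 genes, and their part in the results was not tested. The sum over a list of 17 pancreatic acinar genes was 42541 to 44299 scaled counts in selenite libraries, 1164 to 1240 in β-CYP libraries and 983 to 1157 in control libraries. All 16 tested genes of that list were higher in selenite than in β-CYP livers, and none passed in β-CYP against control with limma (2 at an unadjusted p under 0.05), though 2 rose without β-CYP replicate 1 and 1 without control replicate 3. The macrophage list summed to 16294 to 16328 in selenite, 13414 to 13672 in β-CYP and 13805 to 13966 in control libraries, and 8 of its 11 entries, from 10 symbols, were higher in selenite than in β-CYP livers, Marco among them (2.02 ± 0.12). The adipocyte list summed to 1541 to 1681 in selenite, 1380 to 1530 in β-CYP and 889 to 936 in control libraries. Its genes did not move together: of 7 tested, 1 rose and 1 fell in β-CYP against control livers, with a median log2 change of -0.76. Fabp4 rose (1.59 ± 0.11) and Adipoq fell (-3.59 ± 0.54). In selenite against β-CYP livers 3 of the 7 rose and none fell. Of 12 hepatocyte markers, 10 fell and none rose in selenite against β-CYP livers, Tat the most (-1.40 ± 0.018), while Apcs, Crp, Orm1 and Orm2 rose. Under equal totals 6 of the 12 fell, and under quantile normalization 6 fell and 1 rose.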

How the data were processed

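RNA libraries of mouse liver, 9 in all, were made with a TruSeq RNA kit after Trizol, per the labels' protocols; the design text names a HiSeq instrument and the library protocol a BGISEQ one. The submitters' processing notes name HISAT, Cufflinks and build mm9, without version or role; counting tool, strand setting and annotation: not given in the sources used here. Log2 values were deposited by the authors and equal log2(reads / library factor + 1): undoing them gave whole reads (tolerance 0.02) in 100% of values, and the factors equal median-of-ratios factors within 1e-06. No sample column was left unused.

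The deposited log2 values of all 9 libraries entered a single linear model with 3 group means in limma 3.58.1 (R 4.3.3), with an intensity trend, for the 20145 genes with a mean of at least 1 scaled count, two-sided, with Benjamini-Hochberg adjustment and a threshold of 0.05. The 1 added before taking logs understates changes of low genes. The fit was tested on simulated data. No count model was run. The members and gene lists were chosen with earlier results of these data known. Genes outside the members are named by rule: up to 3 largest rises and falls of each list, and the 3 genes nearest in pattern to each member; the text names examples. Itih2, and the values by which single libraries are described, were chosen after they were seen. Replicate numbers were not used to pair the libraries in this fit. Correlations of deviations between same-numbered libraries ran from -0.11 to 0.094, none over 0.1, and between other numbers they reached 0.18. With 3 libraries a group, deviations from the group mean are tied to each other, so these values cannot exclude pairing. The 3 alternatives of scaling, quantile normalization, the value added before logs, the filter, the trend, the replicate block, the samples in the fit and leaving out each library are given at the end. Exon lengths and transcripts came from GENCODE M21 (GRCm38), matched by identifier, and promoter sequences from RefSeq; no mm9 coordinate is given. The labels' doses and ages were copied as given.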

Additional observations from a re-analysis of the deposited data

How the results depend on the processing

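In both comparisons with control, 9 of the 10 genes were higher and none lower under every alternative run. For the 10 genes over the 3 comparisons, 493 alternative values kept direction and side of the threshold, 10 no longer passed, 1 passed newly and 6 changed sign; the causes were not tested. Scaling to equal totals moved the median of all genes to 0.14 in selenite against β-CYP and to 0.15 in selenite against control livers, so that 3200 genes were higher and 1324 lower (2337 and 2468 as reported) and 3948 higher and 1757 lower (2908 and 2915 as reported); relative to β-CYP, 3 of the 10 genes were then lower with selenite. In selenite against β-CYP livers, Hp became 0.12 and Itih4 0.025 under equal totals, and Itih4 0.022 under quantile normalization. Leaving out 1 library at a time gave Hp values of -0.12 to 0.058, with 0.0041 without selenite replicate 2, 0.058 without β-CYP replicate 2 and 0.047 without β-CYP replicate 3. Itih4 did not pass without the intensity trend (adjusted p = 0.194), nor did Crp (adjusted p = 0.348), which also failed under trimmed-mean scaling (adjusted p = 0.0644). The read share of the 10 genes differed by -0.031 points without the Orm genes, and by -0.044 to 0.060 points with 1 library left out. Of the other genes named, quantile normalization, under which the top-ranked gene takes one value everywhere, gave 0 for Alb, 0.13 for Itih1 and 0.078 for Itih2 in selenite against control livers, and 0.021 for Itih2, 0.22 for Lrg1 and 0.069 for Apoa4 in selenite against β-CYP livers; equal totals gave 0.0042 for Alb in selenite against control and 0.00737 for Lrg1 in selenite against β-CYP livers. With the replicate number as a block, 2956 genes passed in β-CYP against control (3285 as reported), 4481 in selenite against β-CYP (4805) and 5506 in selenite against control (5823), and Crp no longer passed in selenite against β-CYP (adjusted p = 0.061). In 8 of 18 cases a library correlated best with its own number in another group. For the 10 genes, depth limits Orm3 most, with 317 to 567 scaled counts.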

Other observations

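The genes beside the 10 on their chromosomes were read after the main results were known. Of 24 tested genes among the 2 nearest on each side of each member, 6 rose and 3 fell in β-CYP against control livers (limma, adjusted p under 0.05), where 7.72% of all genes tested rose and 8.58% fell. Next to Hp, Txnl4b, which encodes a thioredoxin-like splicing factor, fell by 1.15 on the log2 scale in β-CYP against control livers (SE 0.11, adjusted p = 7.3e-05), where Hp rose. It was higher in selenite than in β-CYP livers (log2 change 0.67 ± 0.11, adjusted p = 0.0017), where Hp did not pass. Tmem110, near Itih4, rose by 0.56 ± 0.085 in β-CYP over control livers (adjusted p = 0.0014), and its difference between selenite and β-CYP livers was -0.12 ± 0.085 (adjusted p = 0.379). These genes were singled out after their values were seen, and reads of overlapping transcripts may have been counted for either gene, as no strand setting is known.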
